A study of Mus musculus with 24 samples.

Results

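The heat-shock chaperones described here are 10 cytosolic members of the protein-folding machinery. They were chosen by symbol as Hspa1a, Hspa1b, Hspa8, Hsph1, Dnajb1, Hsp90aa1, Hspb1, Hspb8, Cryab and Bag3. All 10 were found among the 55487 genes listed and all 10 were among the 14541 genes tested. They were measured in bulk RNA of C2C12 myotubes, contractile multinucleated cells that form when mouse C2C12 myoblasts fuse. The 24 libraries came from 4 groups of 6 separate wild-type cultures labelled as day 5, all of which had differentiated at 5 % O2. Myotubes were held for 2 h at 5 % O2 (5 % CTRL) or 1 % O2 (1 % CTRL), or were held in the same way and then made to contract by repeated short bouts of electrical pulses (5 % STIM and 1 % STIM). All cultures are of a single cell line, and medium was replaced before and after stimulation. Whether unstimulated cultures had the same changes of medium, or were kept as long before harvest, is not stated, so the pulses cannot be told apart from this handling or from a longer stay at the given O2 level.

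Heat-shock chaperones keep proteins from aggregating and help them to fold. HSP70 proteins bind exposed hydrophobic stretches and are driven through their ATP cycle by J-domain proteins and by nucleotide exchange factors such as HSP110 and BAG proteins, HSP90 completes the folding of selected clients, and small heat-shock proteins hold unfolded clients without using ATP. In muscle, contraction strains the proteins of the Z-disc, and the complex of Bag3 with Hspb8 and HSP70 is known for handing damaged ones to autophagy. Many of these genes are transcribed by heat-shock factor 1, which binds the heat-shock element in their promoters.

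Libraries held 26541858 to 28173745 reads, of which the 10 genes took 0.401 % to 0.496 %. Values are normalized counts, which are gene counts divided by the size factor of the library. The comparisons were taken from 1 limma model of the 24 libraries, fitted to log2(normalized count + 1), and a gene was called when its Benjamini-Hochberg adjusted p over the 14541 genes was under 0.05. The summed level of 12 myotube markers was 504489 to 550502 in the libraries of 5 % CTRL, 448217 to 494445 in those of 1 % CTRL, 460495 to 525118 for 5 % STIM and 445045 to 486735 for 1 % STIM, and none of these markers was at 0. The sum over 8 myoblast and cycling markers was 4052 to 4528, 4732 to 6999, 4469 to 5294 and 4859 to 6031 in the same order, and that over 4 fibroblast markers, of which 2 stayed under 10 in every library, was 1371 to 1583, 1175 to 1248, 1377 to 1585 and 1202 to 1392. Their part in the results below was not tested, and in bulk RNA fewer cells of a type and less RNA per cell cannot be told apart.

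Stimulation went with different changes under the 2 O2 levels for 3 of the chaperones. Under 1 % O2, stimulated myotubes held more Hspa1a, Hspa1b, Dnajb1, Hsph1 and Hspa8 transcript than unstimulated ones, and none of the 10 genes was called lower. Under 5 % O2 only Dnajb1 was called higher with stimulation, and Hspa8 and Hsph1 were called lower. The difference between these responses was itself called for Hspa1a, Hspa8 and Hsph1, each of which responded more positively under 1 % O2. After 1 % O2 without stimulation Dnajb1 and Hspb8 were higher, and Hspa1a, Hspa8, Hsph1, Hsp90aa1 and Bag3 were lower. Hspa1a shares reads with its copy Hspa1b. With these copies summed, the difference between responses was not called (0.57, limma adjusted p = 0.338). Nor was the change under 1 % O2 without stimulation (-0.33, limma adjusted p = 0.269).

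In numbers, 1 % CTRL against 5 % CTRL gave 2 chaperones called higher, where 29.4 % of all genes tested were, and 5 called lower, where 30.5 % were. The groups did not overlap for 4 of the 10, against 38.2 % of all genes, a share near the background. For 5 % STIM against 5 % CTRL, 1 was called higher (9.44 % of all genes) and 2 lower (12 %), and the groups overlapped for all 10 genes, where 11.1 % of all genes did not overlap. For 1 % STIM against 1 % CTRL, 5 of 10 were called higher against 11.5 % of all genes, 0 were lower against 10.8 %, and 4 did not overlap against 11.2 %. For 1 % STIM against 5 % STIM, 4 were higher (29.0 %), 1 was lower (28.4 %) and 2 did not overlap (37.3 %). The interaction, which is the response to stimulation under 1 % O2 minus that under 5 % O2, was called positive for 3 of 10 against 5.88 % of all genes and negative for 0 against 5.43 %. The median log2 fold change of the 10 was -0.16, 0.03, 0.22, 0.13 and 0.15 in this order, while that of all genes tested was 0.00, -0.01, 0.00, 0.00 and 0.01. These comparisons share groups with each other and are therefore not independent. Hspa1a and Hspa1b also share reads, so their calls are not independent of each other either.

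**Figure D1:**
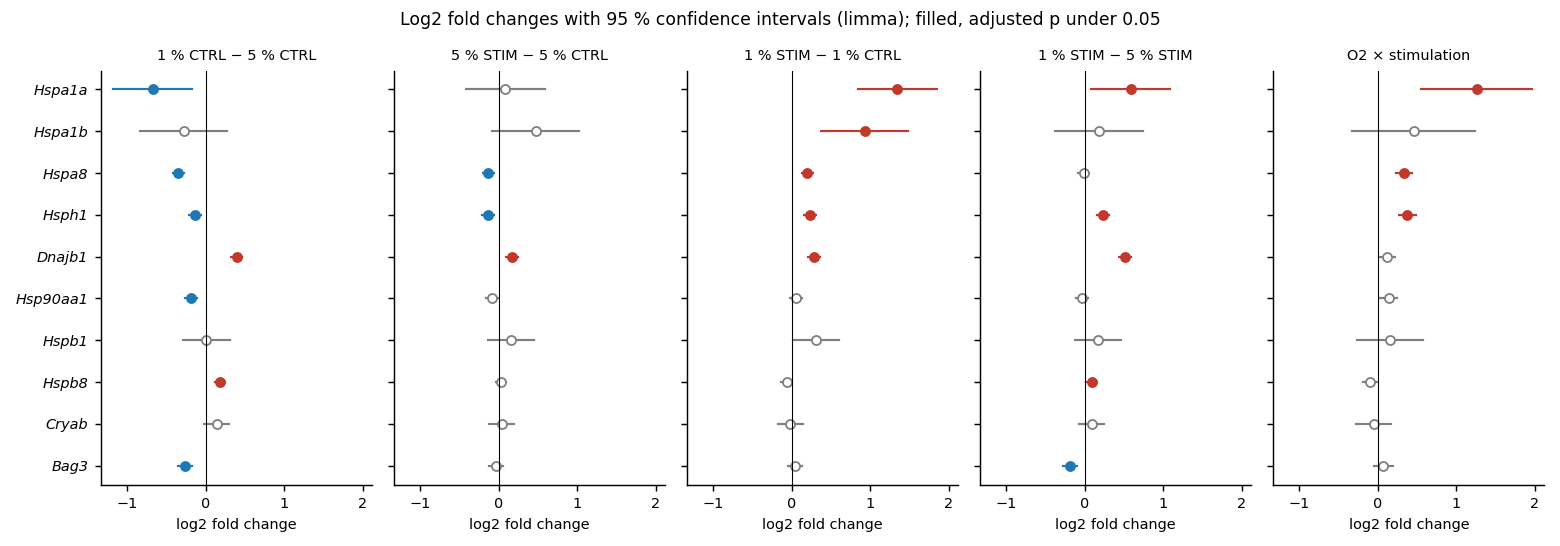
Log2 fold changes of the 10 chaperones (x axis) in the 4 comparisons and in the interaction of O2 with stimulation, 1 row per gene, with 95 % confidence intervals from limma. Filled points are called (red higher, blue lower) and open points are not. The 5 genes called in 1 % STIM against 1 % CTRL all lie to the right of 0, and Hspa1a has the widest intervals beside Hspa1b.

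The share of called genes that were higher depended on the scaling. When libraries were rescaled to the same total of normalized counts it went from 49.0 % to 62.7 % for 1 % CTRL against 5 % CTRL, from 44.0 % to 62.1 % for 5 % STIM against 5 % CTRL, from 51.4 % to 62.4 % for 1 % STIM against 1 % CTRL and from 50.4 % to 63.2 % for 1 % STIM against 5 % STIM, with median shifts of 0.08, 0.03, 0.02 and 0.07 on the log2 scale. For the interaction it went the other way, from 52.0 % to 47.5 %, with a shift of -0.01. Among the chaperones this scaling changed 2 calls. Hsph1 was no longer called in 1 % CTRL against 5 % CTRL (log2 fold change -0.06, limma adjusted p = 0.17), and Cryab became called there (0.23, limma adjusted p = 0.0161).

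Promoter windows of 300 bases, 250 before and 50 after the annotated start, were given by RefSeq on GRCm38.p6 for 7 of the 10 genes, and Hspa8, Hsp90aa1 and Cryab were without one. A heat-shock element was searched as GAANNTTC or TTCNNGAA and a hypoxia response element as ACGTG or GCGTG, both on either strand. The heat-shock motif was found for 6 of the 7 genes, where 17.0 % of 27025 genes with a window hold it. The exception was Dnajb1. The hypoxia motif was found for 3 of the 7 (Hsph1, Dnajb1 and Bag3) against 46.7 % of genes. Of these 3, Dnajb1 was called higher under 1 % O2 without stimulation, and Hsph1 and Bag3 were called lower. Whether either motif had a part in any change was not tested. The windows of Hspa1a and Hspa1b differed at 4 of 300 bases. The stretches below are shown because they carry these matches, which are in capitals and read 5′ to 3′ on the strand of the gene. For Hspa1a (chr17:34972242-34972271) and Hspa1b (chr17:34959324-34959353), both on the minus strand, the match begins 104 bases before the start, and the stretch is the same in both.
Hspa1a: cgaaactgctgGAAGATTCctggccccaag
Hspa1b: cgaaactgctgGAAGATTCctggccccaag
For Hsph1 (minus strand), counted from 1 of its starts, a match lies 54 bases before the start (chr5:149636351-149636380) and a pair of overlapping matches lies just after it (chr5:149636277-149636306). The hypoxia motif stands between them on both strands (chr5:149636318-149636347). From the other start the first match lies 33 bases before and the hypoxia motif begins 3 bases after. The stretches follow in this order.
Hsph1 upstream: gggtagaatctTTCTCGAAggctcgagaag
Hsph1 downstream: tgcagaTTCTGGAAAGTTCtcctcagtagg
Hsph1 hypoxia motif: gaagcggaagtggCACGTGgaggcgccggt
For Hspb1 (plus strand, chr5:135887791-135887820 and chr5:135887811-135887840) the window holds 2 matches, 117 and 97 bases before the start.
Hspb1 distal: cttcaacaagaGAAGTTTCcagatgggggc
Hspb1 proximal: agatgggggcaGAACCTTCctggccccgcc
For Hspb8 (minus strand, chr5:116422844-116422873) and Bag3 (plus strand, chr7:128523603-128523632) the heat-shock match lies after the start. Bag3 also holds hypoxia motifs 243 and 175 bases before its start, which are not printed. Dnajb1 (plus strand, chr8:83608097-83608126) is given with 1 of its hypoxia motifs, 65 bases before 1 of its starts.
Hspb8: agaagccaggaGAAGTTTCtaggctcgcga
Bag3: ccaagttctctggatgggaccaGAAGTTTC
Dnajb1: agagagggaagggGCGTGgccccgcgcgga

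The 10 transcripts differed widely in abundance. Per kilobase of annotated exon, the mean level over the 24 libraries was 14157 normalized counts for Hspa8, 8334 for Cryab and 7799 for Hsp90aa1, followed by 3284 for Hspb8, with overlapping ranges over libraries for Cryab and Hsp90aa1 only. Bag3 (897), Hspb1 (822), Hsph1 (800) and Dnajb1 (653) formed a middle tier, in which the ranges over libraries overlapped for neighbouring genes. Hspa1b (120) and Hspa1a (19.6), the genes for inducible HSP70, were the lowest, and the ranges of the 2 over all libraries did not overlap (39.7 to 200 against 7.11 to 37.4 per kilobase). They also varied most, with the highest library at 5.26 times the lowest for Hspa1a and 5.04 times for Hspa1b. The steadiest was Hsp90aa1, where this ratio was 1.27.

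**Figure D2:**
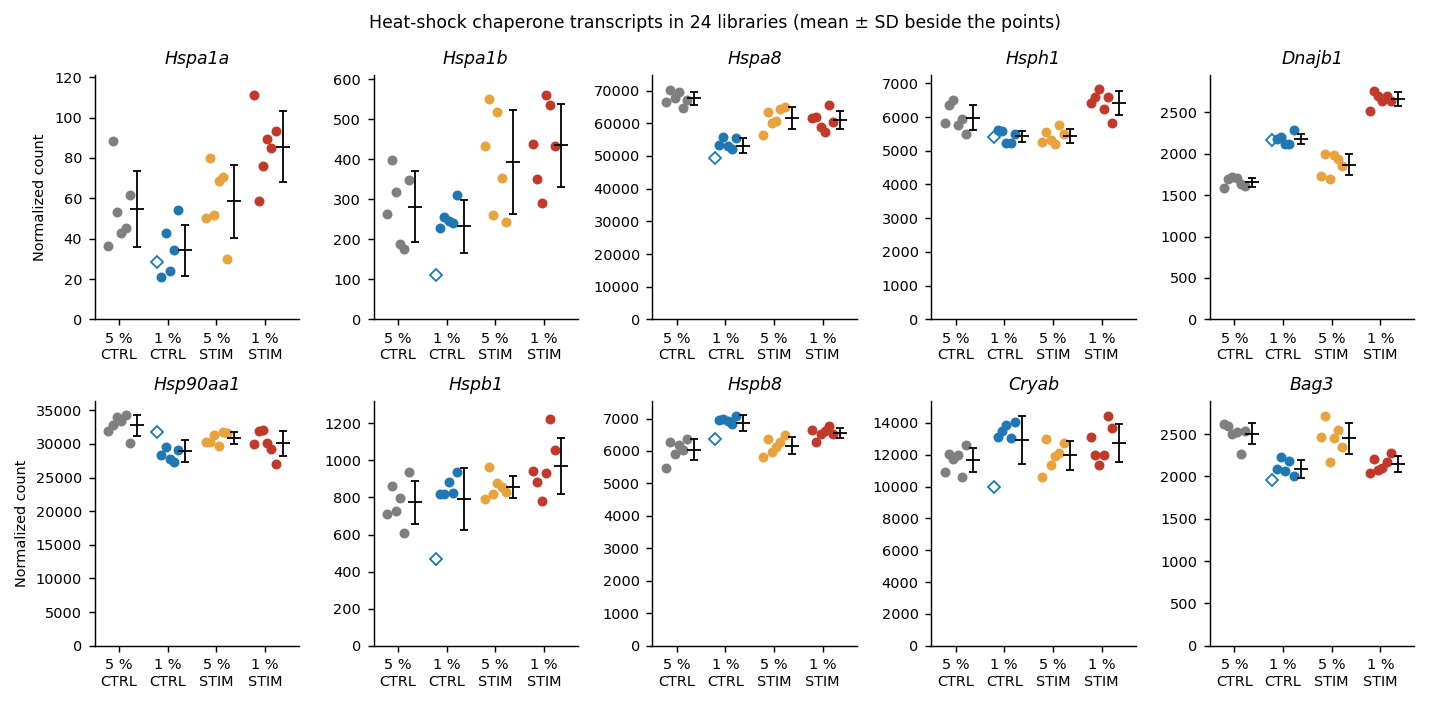
Normalized counts of the 10 chaperones in each of the 24 libraries, with 6 points per group and the group mean ± SD beside them; every y axis starts at 0. The open diamond is 1 % CTRL replicate 1. The 6 libraries of 1 % STIM lie above those of 1 % CTRL for Hspa1a, Hspa8, Hsph1 and Dnajb1, and the diamond is the lowest of its group for Hspb1 (465) and Cryab (10006).

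Hspa1a and Hspa1b encode the inducible cytosolic HSP70, which is low in unstressed cells and rises steeply after heat. Both are single-exon genes on chromosome 17 of GRCm38, minus strand, Hspa1a (ENSMUSG00000091971) at 34969190 to 34972156 and Hspa1b (ENSMUSG00000090877) at 34956436 to 34959238. Of the 150-base words in their exons, 46.0 % of those in Hspa1a and 40.5 % of those in Hspa1b also occur elsewhere in the annotated transcripts, mostly in the other copy, so that reads of that length can be split between them and their separate values are uncertain. The antisense gene Gm20481 also overlaps 564 bases of Hspa1a, and its reads cannot be told apart from those of Hspa1a unless the counting used the strand.

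Hspa1a ranged from 36.3 to 88.5 normalized counts in 5 % CTRL (median 49.4), from 21.1 to 54.3 in 1 % CTRL (median 31.6), from 29.9 to 80.1 in 5 % STIM (median 60.0) and from 58.8 to 111 in 1 % STIM (median 87.1). Every stimulated library under 1 % O2 was above every unstimulated one, while the groups overlapped in the other comparisons. The log2 fold change for stimulation under 1 % O2 was 1.35 (SE 0.24, limma adjusted p = 0.000148), or 2.54-fold, and that under 5 % O2 was 0.09 (SE 0.24, limma adjusted p = 0.847, 95 % interval -0.41 to 0.59). The difference between the 2 responses was 1.26 (SE 0.34, limma adjusted p = 0.0174). In unstimulated myotubes Hspa1a was lower under 1 % O2, with a log2 fold change of -0.67 (SE 0.24, limma adjusted p = 0.0192), which passed the threshold in 22 of the 24 fits that left out 1 library. It missed it without 5 % CTRL replicate 2 (-0.53, limma adjusted p = 0.0558), the highest library of its group, or without 1 % CTRL replicate 2 (-0.55, limma adjusted p = 0.0554), the lowest. The value for 1 % STIM against 5 % STIM was 0.58 (SE 0.24, limma adjusted p = 0.0427), and it passed in 16 of those 24 fits and not with a replicate block (limma adjusted p = 0.0843). The fits in which it did not pass were those without 5 % STIM replicate 1, 3 or 6, without 1 % STIM replicate 1, 4, 5 or 6 and without 1 % CTRL replicate 1, with log2 fold changes of 0.41 to 0.58 (limma adjusted p = 0.0513 to 0.123). Each value rests on 22 to 114 reads, and libraries of a group varied by 20.5 % to 36.7 % of the mean (coefficient of variation), where counting error alone gives 10.6 % to 16.8 %.

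Hspa1b, the more abundant copy, had 176 to 398 normalized counts in 5 % CTRL (median 290.3), 111 to 311 in 1 % CTRL (median 244), 242 to 551 in 5 % STIM (median 393) and 292 to 560.2 in 1 % STIM (median 437). Under both O2 levels the stimulated groups reached higher values, but all groups overlapped. It rose with stimulation under 1 % O2 by 0.93 on the log2 scale (SE 0.27, limma adjusted p = 0.0145). Under 5 % O2 the log2 fold change was 0.47 (SE 0.27, limma adjusted p = 0.232, 95 % interval -0.08 to 1.03), and the interaction of 0.46 was not called (SE 0.38, limma adjusted p = 0.494). Without 1 % CTRL replicate 1, the lowest library of its group, the interaction was 0.26 (limma adjusted p = 0.664), and with a covariate for gene length, described below, it was 0.80 (limma adjusted p = 0.0972). With both copies summed, the log2 fold change was 0.99 for stimulation under 1 % O2 (limma adjusted p = 0.00611) and 0.42 under 5 % O2 (limma adjusted p = 0.267), and the difference of 0.57 was not called (limma adjusted p = 0.338). The sum was also not called in 1 % CTRL against 5 % CTRL (-0.33, limma adjusted p = 0.269) or in 1 % STIM against 5 % STIM (0.24, limma adjusted p = 0.434). Thus 3 calls of Hspa1a were made only with the copies kept apart, and whether they belong to that copy or to the split of shared reads was not tested. Hspa1l, an HSP70 gene next to Hspa1a that shares part of its sequence, was higher under 1 % O2 both without stimulation (log2 fold change 0.63, limma adjusted p = 1.7e-05) and with it (0.61, limma adjusted p = 2.55e-05).

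Hspa8 encodes the constitutive HSP70, HSC70, and was the most abundant of the 10 transcripts. It lies on chromosome 9, plus strand, at 40800984 to 40810087 (ENSMUSG00000015656). It held 64811 to 70293 normalized counts in 5 % CTRL (median 67383), 49245 to 55755 in 1 % CTRL (median 53221), 56360.2 to 65104 in 5 % STIM (median 62121) and 57411 to 65697 in 1 % STIM (median 61109). The 1 % CTRL libraries were the lowest, with no overlap with 5 % CTRL or with 1 % STIM, and both stimulated groups lay together between the controls. Under 1 % O2 without stimulation it was lower, with a log2 fold change of -0.35 (SE 0.04, limma adjusted p = 1.79e-10). With stimulation it was lower under 5 % O2 (-0.13, SE 0.04, limma adjusted p = 0.00498) and higher under 1 % O2 (0.20, SE 0.04, limma adjusted p = 4.53e-05), and these responses differed by 0.33 (SE 0.05, limma adjusted p = 1.4e-05). Stimulated myotubes under 1 % and 5 % O2 differed by -0.01 (limma adjusted p = 0.737, 95 % interval -0.09 to 0.06).

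A processed pseudogene that shares sequence with Hspa8 was listed at a level close to it. Gm15459, on chromosome 5 at 5781615 to 5783555 (ENSMUSG00000100801), was listed at 56215 ± 2885 (SD, n = 6) normalized counts in 5 % CTRL and 41629 ± 1387 in 1 % CTRL. With stimulation its level was 47351 ± 2059 under 5 % O2 and 47130.2 ± 3065 under 1 % O2. It was 69.9 % to 89.8 % of the Hspa8 value of the same library. Of the words of 150 bases in Hspa8, 23.0 % also occur in other annotated genes. Gm15459 is among them, as is Gm26825, which matches on the opposite strand. From which gene the shared reads came was not tested. Gm15459 moved in the same directions as Hspa8, with log2 fold changes of -0.43 in 1 % CTRL against 5 % CTRL (limma adjusted p = 6.76e-12), -0.25 with stimulation under 5 % O2 (limma adjusted p = 6.26e-06) and 0.18 under 1 % O2 (limma adjusted p = 0.000551). With Hspa8 and its annotated copies summed, the same 4 calls stood, at -0.38 (limma adjusted p = 3.5e-13), -0.18 (limma adjusted p = 1.62e-05), 0.19 (limma adjusted p = 8.01e-06) and 0.37 for the interaction (limma adjusted p = 8.9e-08). Gm26825 was not in this sum, and its reads cannot be told apart from those of Hspa8 unless the counting used the strand.

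**Figure D3:**
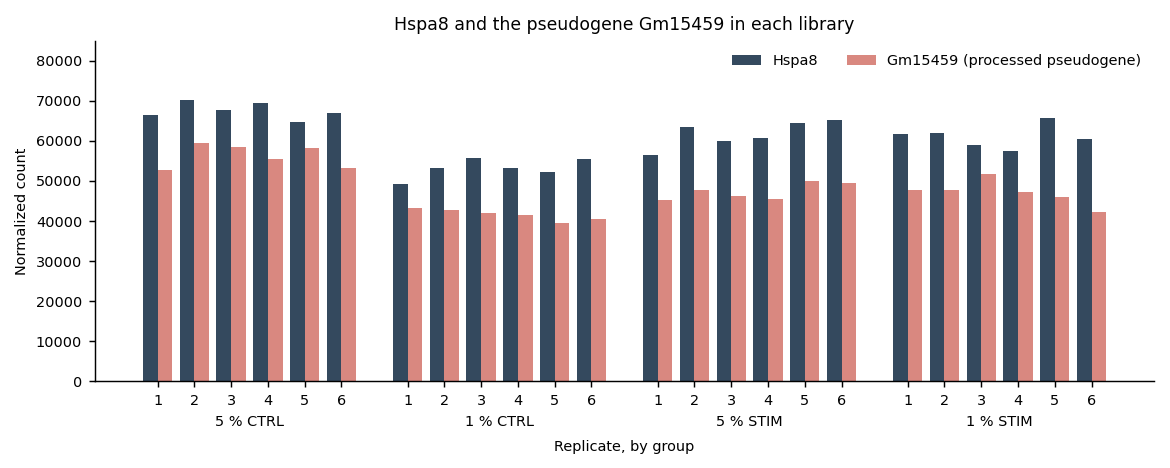
Normalized counts of Hspa8 (dark bars) and of its processed pseudogene Gm15459 (light bars) in each of the 24 libraries, by group and replicate, from 0. In every library the pseudogene is listed at 69.9 % to 89.8 % of Hspa8, and both are lowest in 1 % CTRL.

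Hsph1 encodes HSP105, an HSP110-family protein that exchanges the nucleotide of HSP70. It lies on chromosome 5, minus strand, at 149614287 to 149636376 (ENSMUSG00000029657), and shares no 150-base word with another gene. Its normalized count was 5496 to 6493 in 5 % CTRL (median 5891), 5236 to 5613 in 1 % CTRL (median 5447), 5213 to 5772 in 5 % STIM (median 5401) and 5814 to 6833 in 1 % STIM (median 6505). All 1 % STIM libraries were above all libraries of 1 % CTRL and of 5 % STIM. Hsph1 was lower with 1 % O2 alone (log2 fold change -0.14, SE 0.04, limma adjusted p = 0.00217) and with stimulation alone (-0.14, SE 0.04, limma adjusted p = 0.00817). With stimulation under 1 % O2 it was higher by 0.24 (SE 0.04, limma adjusted p = 8.02e-06), and its interaction of 0.38 had the smallest p of the 10 genes (SE 0.05, limma adjusted p = 6.63e-06).

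Dnajb1 encodes HSP40, the J-domain protein that delivers clients to HSP70 and triggers its ATP hydrolysis. It lies on chromosome 8, plus strand, at 83608193 to 83612653 (ENSMUSG00000005483), and shares no 150-base word with another gene. It had 1591 to 1717 normalized counts in 5 % CTRL (median 1665), 2121 to 2289 in 1 % CTRL (median 2176), 1699 to 2001 in 5 % STIM (median 1895) and 2523 to 2759 in 1 % STIM (median 2672). Both 1 % O2 groups were clear of both 5 % O2 groups, and 1 % STIM was clear of all others. It was the only chaperone of the 10 called higher in all 4 comparisons. The log2 fold change was 0.39 for 1 % O2 without stimulation (SE 0.04, limma adjusted p = 2.41e-11) and 0.51 with it (SE 0.04, limma adjusted p = 4.89e-14). For stimulation it was 0.17 under 5 % O2 (SE 0.04, limma adjusted p = 0.000699) and 0.29 under 1 % O2 (SE 0.04, limma adjusted p = 1.75e-07). The difference between the responses to stimulation was 0.12 (SE 0.05, limma adjusted p = 0.151, 95 % interval 0.01 to 0.22), so a larger response under 1 % O2 was not shown.

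Hsp90aa1 encodes the inducible HSP90 isoform and lies on chromosome 12, minus strand, at 110690605 to 110702728 (ENSMUSG00000021270). Its normalized count was 30125 to 34254 in 5 % CTRL (median 33143), 27301 to 31708 in 1 % CTRL (median 28680), 29702 to 31759 in 5 % STIM (median 30881) and 27047 to 32104 in 1 % STIM (median 30071). The groups overlapped in every comparison. It was lower under 1 % O2 in unstimulated myotubes, by a log2 fold change of -0.18 (SE 0.04, limma adjusted p = 0.000111), and was not called elsewhere. The value for stimulation under 5 % O2, -0.09 (SE 0.04, limma adjusted p = 0.105), was called without 5 % CTRL replicate 6 (-0.11, limma adjusted p = 0.0326) and in a fit of the 12 libraries compared alone (limma adjusted p = 0.0444). Its interaction of 0.14 (SE 0.05, limma adjusted p = 0.0851) passed the threshold when 1 of 3 libraries was left out, which were 1 % CTRL replicate 1 (0.17, limma adjusted p = 0.0169), 1 % STIM replicate 6 (0.17, limma adjusted p = 0.0197) and 5 % CTRL replicate 6 (0.17, limma adjusted p = 0.0317). Of its 150-base words 28.5 % occur in other genes, yet its annotated copies were listed at only 0.261 % to 0.407 % of its own value.

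Hspb1, Hspb8 and Cryab encode small heat-shock proteins. Hspb1 (HSP25 in the mouse) lies on chromosome 5, plus strand, at 135887919 to 135889563 (ENSMUSG00000004951), and shares 39.1 % of its 150-base words with pseudogenes that were listed at no more than 0.207 % of it. It had 609.6 to 936 normalized counts in 5 % CTRL (median 764), 465 to 938 in 1 % CTRL (median 822), 789 to 964 in 5 % STIM (median 843) and 782 to 1221 in 1 % STIM (median 937). The groups overlapped throughout, and 1 % CTRL replicate 1 lay far below the other 5 libraries of its group. No comparison was called, and the value closest to it was 0.31 for stimulation under 1 % O2 (SE 0.14, limma adjusted p = 0.128, 95 % interval 0.02 to 0.61). Without 1 % CTRL replicate 1 this log2 fold change was 0.17 (limma adjusted p = 0.265).

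Hspb8, the partner of Bag3, lies on chromosome 5, minus strand, at 116408491 to 116422864 (ENSMUSG00000041548). Its normalized count was 5471 to 6377 in 5 % CTRL (median 6112), 6384 to 7080.5 in 1 % CTRL (median 6935), 5811 to 6478 in 5 % STIM (median 6187) and 6268 to 6755 in 1 % STIM (median 6567). All 1 % CTRL libraries were above all 5 % CTRL libraries, and the other comparisons overlapped. The log2 fold change for 1 % O2 was 0.18 without stimulation (SE 0.03, limma adjusted p = 1.49e-05) and 0.09 with it (SE 0.03, limma adjusted p = 0.0247). The latter call was lost without 5 % STIM replicate 1 (0.07, limma adjusted p = 0.0784), 5 % STIM replicate 3 (0.08, limma adjusted p = 0.0578) or 1 % STIM replicate 5 (0.08, limma adjusted p = 0.0581). Stimulation under 1 % O2 gave -0.07 (SE 0.03, limma adjusted p = 0.171), which was called as a fall without 1 % CTRL replicate 1 (-0.09, limma adjusted p = 0.0469).

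Cryab encodes alpha B-crystallin, the most abundant small heat-shock protein transcript of the 3 here. It lies on chromosome 9, plus strand, at 50751325 to 50756636 (ENSMUSG00000032060), and 252 bases of its exons overlap those of Hspb2 on the other strand, whose reads cannot be told apart from its own unless the counting used the strand. It had 10604 to 12611 normalized counts in 5 % CTRL (median 11867), 10006 to 14044 in 1 % CTRL (median 13330), 10616 to 13024 in 5 % STIM (median 12013) and 11350 to 14438 in 1 % STIM (median 12547). In 1 % CTRL replicate 1 was the lowest of all 24 libraries, and the other 5 were above every library of 5 % CTRL. With all libraries no comparison was called, with 0.15 for 1 % O2 in unstimulated myotubes (SE 0.08, limma adjusted p = 0.108). Without 1 % CTRL replicate 1 this value was 0.22 and was called (limma adjusted p = 0.00388). Hspb2, a small heat-shock protein gene that shares a promoter region with Cryab, was not called in any comparison, with log2 fold changes of -0.17 to 0.11 in the 4 comparisons.

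Bag3, the co-chaperone that links HSP70 to Hspb8 and to autophagy, lies on chromosome 7, plus strand, at 128523616 to 128546981 (ENSMUSG00000030847). It had 2263 to 2624 normalized counts in 5 % CTRL (median 2529), 1963 to 2231 in 1 % CTRL (median 2077), 2169 to 2717 in 5 % STIM (median 2459) and 2037 to 2281 in 1 % STIM (median 2132). All 1 % CTRL libraries were below all 5 % CTRL libraries. The log2 fold change for 1 % O2 was -0.26 without stimulation (SE 0.04, limma adjusted p = 2.72e-06) and -0.19 with it (SE 0.04, limma adjusted p = 0.000284). Stimulation gave no call under either O2 level, at -0.03 (limma adjusted p = 0.639, 95 % interval -0.12 to 0.05) and 0.04 (limma adjusted p = 0.597, 95 % interval -0.05 to 0.13). Bag3 and its partner Hspb8 thus moved in opposite directions with 1 % O2, and neither was called for stimulation.

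The transcripts of the factors that bind heat-shock elements were measured too. Hsf1, the principal heat-shock factor, was lower under 1 % O2 without stimulation (log2 fold change -0.20, SE 0.04, limma adjusted p = 5.84e-05) and with it (-0.13, SE 0.04, limma adjusted p = 0.00626), and was not called for stimulation. Hsf2 was lower under 1 % O2 (-0.18, limma adjusted p = 0.00132) and with stimulation under 5 % O2 (-0.20, limma adjusted p = 0.00185), and its interaction was 0.30 (SE 0.07, limma adjusted p = 0.00222). In the list of heat-shock factors and regulators, of which 6 genes were tested, 0 rose with stimulation under either O2 level, while 2 fell under 5 % O2 and 1 under 1 % O2. Jmjd6 fell under both, by a log2 fold change of -0.19 under 5 % O2 (limma adjusted p = 9.83e-06) and -0.24 under 1 % O2 (limma adjusted p = 1.23e-07). It was higher under 1 % O2 without stimulation (0.61, limma adjusted p = 2.38e-18) and with it (0.56, limma adjusted p = 3.3e-17).

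Other chaperone genes were counted from lists written with earlier results of these data known. Of 15 further targets of HSF1, 6 rose and 1 fell with stimulation under 1 % O2 (median log2 fold change 0.07), where 11.5 % of all genes tested rose and 10.8 % fell. Under 5 % O2, 2 rose and 6 fell (median -0.05), against 9.44 % and 12 % of all genes, and the interaction was positive for 8 and negative for 0, against 5.88 % and 5.43 %. Hspa4l, an HSP110-family gene, rose under 1 % O2 by 0.34 (limma adjusted p = 9.45e-10), with an interaction of 0.26 (limma adjusted p = 0.00027). Dnaja1, another J-domain co-chaperone of HSP70, rose there by 0.23 (limma adjusted p = 2.36e-07), with an interaction of 0.25 (limma adjusted p = 5.95e-05). Hspd1, the mitochondrial HSP60, fell with stimulation under 5 % O2 by a log2 fold change of -0.20 (limma adjusted p = 1.21e-05), and its interaction was 0.29 (limma adjusted p = 3.65e-05).

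The other chaperone families were counted in the same way, to be read against the same shares of all genes. Lists here and below overlap with that of the HSF1 targets, so their counts are not independent. Hspa4l, Dnaja1, Chordc1 and Hspd1 are among the genes counted in both. With stimulation under 1 % O2, of 8 other HSP70 and HSP110 genes listed 1 rose, which was Hspa4l again, and 0 fell. Of 20 genes of HSP90 and its co-chaperones 2 rose and 1 fell, and of 19 other J-domain proteins 3 rose and 3 fell. Of 14 subunits of the chaperonin TRiC and prefoldin, none was called in either direction under 1 % O2, while 6 fell and 0 rose under 5 % O2, led by Cct6a (-0.14, limma adjusted p = 0.000929). Of the genes of HSP90 and its co-chaperones, 6 fell and 0 rose with stimulation under 5 % O2, among them Stip1, the adaptor between HSP70 and HSP90 (-0.15, limma adjusted p = 0.000306), and Chordc1 (-0.34, limma adjusted p = 2.35e-05). Of 5 other small heat-shock proteins tested, none was called for stimulation, and Hspb7 was lower under 1 % O2 without stimulation (-0.31, limma adjusted p = 7.92e-09) and with it (-0.38, limma adjusted p = 8.04e-11). Of 8 other BAG proteins, exchange factors and CHIP, only Bag2 was called for stimulation, and it fell under 5 % O2 (-0.22, limma adjusted p = 3.49e-05) and under 1 % O2 (-0.16, limma adjusted p = 0.00164).

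For chaperones of mitochondria and of the ER the counts for stimulation lay near those shares of all genes. Of 13 mitochondrial chaperones 1 rose and 1 fell under each O2 level. Of 19 ER chaperones 2 rose and 2 fell under 1 % O2, where Dnajb9 rose by 0.32 (limma adjusted p = 2.18e-07), and 1 rose and 2 fell under 5 % O2, where Dnajb9 rose by 0.19 (limma adjusted p = 0.000775) and Hyou1 and P4hb fell. Hspa5, the ER HSP70 known as BiP, was lower under 1 % O2 without stimulation (-0.57, limma adjusted p = 1.54e-15) and with it (-0.44, limma adjusted p = 1.65e-12). Of 9 partners of Bag3 in chaperone-assisted selective autophagy, 3 rose and 0 fell with stimulation under 1 % O2 and 3 rose and 2 fell under 5 % O2. Sqstm1, the autophagy receptor p62, rose by 0.47 under both (limma adjusted p = 1.53e-17 under 1 % O2 and 1.54e-17 under 5 % O2), while Bag3 itself was not called. For 1 % O2 in unstimulated myotubes, 2 of these 9 partners rose and 4 fell, where 29.4 % and 30.5 % of all genes did, with Synpo2, a Z-disc protein that binds Bag3, at 0.53 (limma adjusted p = 6.74e-18) and Flnc, its filamin client, at -0.26 (limma adjusted p = 2.41e-06).

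**Figure D4:**
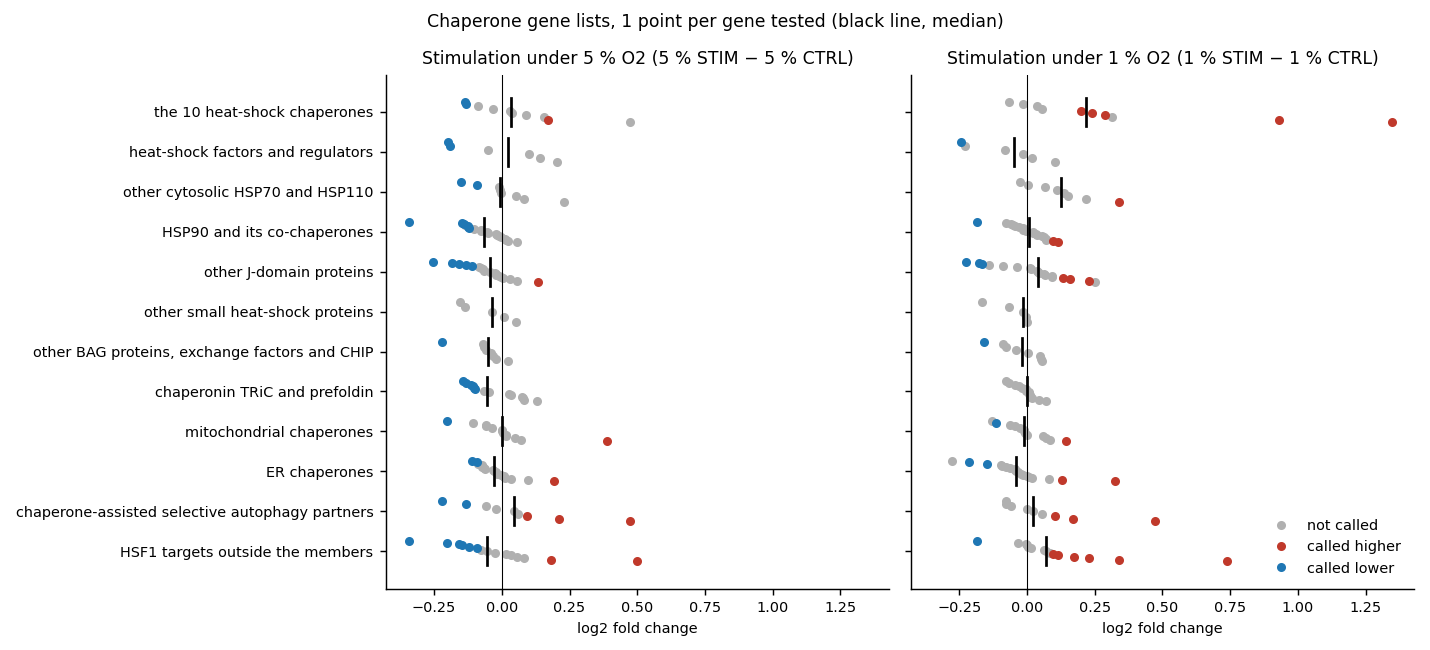
Log2 fold change for stimulation (x axis) under 5 % O2 (left) and 1 % O2 (right) of the 10 heat-shock chaperones and of each gene tested in 11 further chaperone lists. There is 1 point per gene in each list (a gene can be in more than 1), coloured by the limma call, with the median of each list as a black line. Under 1 % O2 the 10 chaperones have a median of 0.22 and 5 called higher, and under 5 % O2 a median of 0.03 and 1 called higher.

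Values of Hspb1 and Cryab, the shortest of the 10 genes, followed a property of the library. Within each library, the deviation of all genes from their group means was fitted against exon length, and the slope per doubling of length was 0.10 in 1 % CTRL replicate 1 and between -0.04 and 0.05 in the other 23 libraries. Over the 24 libraries, the deviation of Hspb1 (1031 bases of exon) had a Pearson r of -0.94 with this slope and that of Cryab (1479 bases) an r of -0.92, while Hsp90aa1 (3931 bases) had 0.66. The r did not simply follow length, since it was -0.66 for Hspa8 (4301 bases) and for Hspa1b (2803 bases), -0.61 for Hspb8 (1950 bases) and 0.15 for Hsph1 (7266 bases), and it lay between -0.39 and -0.14 for Bag3, Hspa1a and Dnajb1. These are descriptions over libraries that share the slope, with n = 24, and the origin of the slope was not tested. A slope was also used as a covariate in the limma fit, a choice made after seeing the data. For this it was taken from deviations from the mean of each gene over all 24 libraries, not from group means. The covariate therefore also carries differences between groups, and values that shift with it are not corrected for differences within groups alone. With it the calls of the 10 chaperones stood and 6 were added to them. Hspb1 was then called for stimulation under 1 % O2 (log2 fold change 0.37, limma adjusted p = 2.86e-08), for 1 % STIM against 5 % STIM (0.34, limma adjusted p = 8.63e-08) and for the interaction (0.42, limma adjusted p = 2.58e-05), but not for stimulation under 5 % O2 (-0.04, limma adjusted p = 0.574). Cryab was called under 1 % O2 without stimulation (0.10, limma adjusted p = 0.00335) and with it (0.18, limma adjusted p = 1.6e-06), and Hsp90aa1 was called lower in 1 % STIM against 5 % STIM (-0.07, limma adjusted p = 0.0342).

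**Figure D5:**
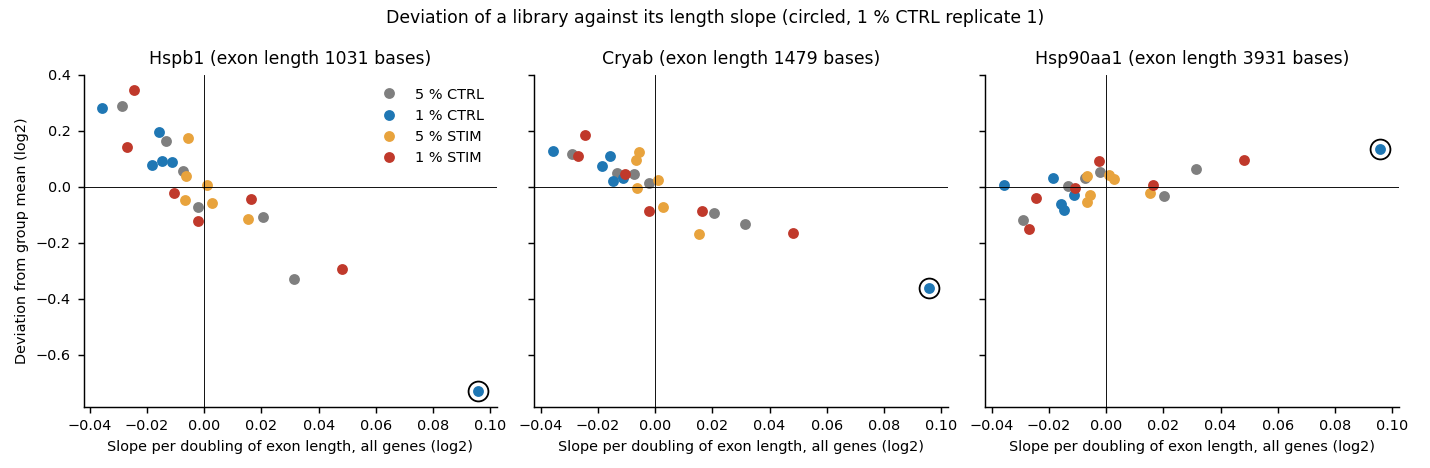
Deviation of a library from its group mean (log2, y axis) for Hspb1, Cryab and Hsp90aa1 against the slope of all genes on exon length in that library (log2 per doubling, x axis), 1 point per library, coloured by group, with 1 % CTRL replicate 1 circled. Hspb1 (r = -0.94) and Cryab (r = -0.92) fall as the slope rises, and Hsp90aa1 (r = 0.66) rises.

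Among the chaperones themselves, the closest pair after group means were removed was Hspb1 with Cryab (r = 0.93 over 24 libraries), both of which followed the length slope. Hspa1a and Hspa1b, which share reads, had 0.62, and Hspa8 and Cryab 0.80. The gene outside the list most like each chaperone over the 24 libraries was found by Pearson r on the log2 scale, as a description. For Dnajb1 it was Atcayos (r = 0.97), for Hsp90aa1 Ppil4 (0.95), for Bag3 Creld1 (0.95), for Cryab Rpl18 (0.93) and for Hspa8 Ddx27 (0.91). Atf5 was the closest gene to both Hspb1 (0.91) and Hspa1b (0.83). Within groups these r were 0.92 and 0.79, so the likeness included differences between libraries of a group. The r of Hspb1 and Hspa1b with the length slope was -0.94 and -0.66, and its part in this likeness was not tested. For Hspb8 the closest gene was Tmed4 (0.89), for Hsph1 E2f6 (0.85) and for Hspa1a Tbrg1 (0.84). The r of Dnajb1 with Atcayos fell to 0.25 once group means were removed, while that of Cryab with Rpl18 was 0.94, so the first followed the groups and the second also followed differences between libraries of a group.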

How the data were processed

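RNA was measured by sequencing in 24 cultures of C2C12 myotubes, 6 in each of the groups 5 % CTRL, 1 % CTRL, 5 % STIM and 1 % STIM, which were assigned from the labels. The authors extracted RNA, made stranded mRNA libraries, checked reads with FastQC 0.11.7, aligned them to GRCm38 with STAR 2.5.4b and estimated expression per gene with RSEM 1.3.0 at default parameters, which are not stated to use the strand. The deposited expression signal is the count of a gene divided by the DESeq2 size factor of the library, so that depth is already corrected. Size factors were 0.955 to 0.992 at 5 % O2 and 1.02 to 1.05 at 1 % O2. The smallest step between values gave back whole reads for 100 % of the values (within 0.01), 26541858 to 28173745 per library. A second deposited table holds the fold changes and p-values of the authors' own comparisons and was not used.

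Testing was limited to genes that reached 10 normalized counts in 6 or more of the 24 libraries and used limma 3.58.1 in R 4.3.3 (lmFit and contrasts.fit, then eBayes, trend and robust options on) on log2(normalized count + 1), with Benjamini-Hochberg adjustment over 14541 genes. Fold changes are on this scale, which understates the change of low genes. The script was tested on simulated data. The fit was repeated with a replicate block, without the filter, with 10 as pseudocount, with 0.01 as the limit on adjusted p, after rescaling to the same total, with edgeR 4.0.16 (TMM, quasi-likelihood test) and DESeq2 1.42.0 on the recovered reads, on the 12 compared libraries alone and without each library in turn. Summing of copies and the length slope as a covariate were added after seeing the data. Coordinates and exons were taken from the GENCODE annotation of GRCm38, in which 55227 (99.5 %) of the genes listed were found. Chaperones and lists were chosen with earlier results of these data known. Genes named outside the 10 are up to 3 called genes of each list and comparison with the largest change, the gene most like each chaperone by Pearson r, genes that share sequence with a chaperone, and Hsf1, Hsf2 and Hspb2.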

Additional observations from a re-analysis of the deposited data

Results flagged for a closer look

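The response to stimulation differed between O2 levels for 3 chaperones by the interaction in limma. The difference (1 % O2 minus 5 % O2, log2) was 1.26 for Hspa1a, whose reads are shared with Hspa1b and whose call was lost when the copies were summed, 0.33 for Hspa8 and 0.38 for Hsph1.

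Of the 40 combinations of a chaperone and a group, 3 held a library whose gap to its nearest neighbour was over 0.625 of the range of the group, where chance gives about 1 in 20. The lowest library was 1 % CTRL replicate 1 for Hspb1 (465 normalized counts) and for Cryab (10006), and 5 % CTRL replicate 5 for Bag3 (2263).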

How the results depend on the processing

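No log2 fold change of a chaperone reversed as a called value. Of 390 values under other settings with all libraries kept, 380 stayed on their side of the threshold, 8 lost the call and 2 gained it, none of them under edgeR or DESeq2 on the recovered reads. Of 1200 with 1 library left out these numbers were 1181, 13 and 6. With 1 library left out, 0 to 1 chaperones were called lower for stimulation under 1 % O2 and 2 to 4 were called higher in 1 % STIM against 5 % STIM (2 without 5 % STIM replicate 1 or 3 or 1 % STIM replicate 5). An adjusted p under 0.01 left 2 called higher there. It left 912 higher and 1032 lower genes for stimulation under 5 % O2, 1044 lower genes for stimulation under 1 % O2, and 369 positive and 461 negative interactions, a stricter limit by construction. Rescaling to the same total left 1133 genes lower for stimulation under 5 % O2. With the length slope as a covariate, 2 chaperones were called lower in 1 % STIM against 5 % STIM.

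Replicate numbers recur in the 4 groups, but same-numbered libraries did not deviate together (r of -0.15 to 0.15 over 36 pairs, median 0.01, and 5 of 24 libraries were closest to their own number), so they were not treated as pairs. With a replicate block, 3 chaperones were called higher in 1 % STIM against 5 % STIM and the other counts of called chaperones were unchanged, at 2 and 5 for 1 % CTRL against 5 % CTRL, 1 and 2 for stimulation under 5 % O2, 5 and 0 under 1 % O2, and 3 and 0 for the interaction (higher and lower).

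Hspa1a rests on 22 to 114 reads, but its libraries varied by more than counting error. Reads shared with copies limit Hspa1a, Hspa1b and Hspa8. Leaving out 1 % CTRL replicate 1 changed a call of Hspa1a, Hsp90aa1, Hspb8 and Cryab and moved values of Hspb1 and Hspa1b.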
